A study of Mus musculus with 46 samples.

Results

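The histone genes of the series were taken by symbol: every gene whose symbol begins with Hist1h to Hist4h, H2af, H3f or H1f. They were 86 of 25624 gene symbols. The classes were 69 replication-dependent genes (the Hist symbols, 55 of them on mouse chromosome 13, 10 on chromosome 3, 3 on chromosome 11 and 1 on chromosome 6) and 17 variant genes (H2af, H3f and H1f symbols). The class was set by symbol alone, so the Hist genes include the pseudogene Hist3h2bb-ps and Hist1h2al, both annotated as noncoding. Of the 86 genes, 24 reached 1 TPM (a transcript level scaled for gene length and library size) in at least 1 library (14 replication-dependent and 10 variant genes), 20 did so in at least 2 libraries (10 of each class) and 9 in every library (3 replication-dependent and 6 variant genes). In every library 12 genes were listed at 0 TPM (8 replication-dependent and 4 variant genes).

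The study asked how loss or inhibition of the SWI/SNF chromatin remodelling complexes changes the inflammatory activation of mouse bone marrow-derived macrophages, which are macrophages grown from marrow in culture. In the first experiment, cells given ACBI1 (a degrader of the SWI/SNF ATPases and Pbrm1), BRM014 (an inhibitor of those ATPases) or BRDK98 (known here by its code name) and 4 hr of lipid A, the active part of bacterial lipopolysaccharide (LPS), were set against control cells labelled WT at 4 hr, and control cells at 1 and 4 hr against resting cells at 0 hr. In the second, Arid1a-/- cells at 1 and 4 hr of LPS were set against Arid1a f/f control cells, which were also sampled at 0 hr. In the third, Pbrm1-/- cells at 4 hr of lipid A were set against Pbrm1 f/f control cells, also sampled at 0 hr, and in the fourth the same 3 compounds were given with 20 or 60 min of lipid A and set against control cells at 0, 20 and 60 min. Each of the 23 groups had 2 libraries, except that the 4 hr control of the first experiment was listed with 2 identical columns and was counted as 1 library, which left 45 libraries. Compound doses, time of addition, the Cre driver, and the age and sex of the mice are not given in the sources used here, and knockout or compound-treated resting cells were not analysed here.

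Replication-dependent histone genes are transcribed in bulk in S phase, when new DNA needs new nucleosomes. Their mRNAs usually end in a conserved stem-loop instead of a poly(A) tail; the stem-loop is bound by Slbp, and the mRNAs are degraded when DNA synthesis stops. Variant histone genes are expressed outside S phase, carry introns in most cases and make polyadenylated mRNAs; their products replace the standard histones in chromatin of cells that no longer divide, such as mature macrophages. Some replication-dependent genes can also give polyadenylated transcripts in differentiating cells. The libraries were prepared from poly(A)-selected RNA, so a stem-loop mRNA without a tail is mostly lost before sequencing. RNAs that carry no tail were still found, at a summed 0.364 to 120.7 TPM a library, so the levels below may hold some tail-less transcripts.

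Libraries held 7015055 to 27527751 exonic reads, recovered from the TPM steps. At these depths 3 reads on a gene of 500 bases were worth 0.262 to 1.19 TPM, so many of the 64 lowest replication-dependent genes lay near or under what the depth can show. Arid1a was at 7.17 and 13.2 TPM in Arid1a-/- cells against 18.3 and 17.3 TPM in control cells at 1 hr. At 4 hr it was at 25.4 and 26.1 TPM against 35.2 and 41.9 TPM. Pbrm1 was at 4.54 and 5.03 TPM in Pbrm1-/- cells against 15.6 and 14.7 TPM in control cells. All 10 macrophage markers were expressed, with summed levels of 14810 to 47350 TPM, and lymphocyte markers summed to at most 1.29 TPM. Granulocyte markers summed to 6.54 to 52.9 TPM in the first 2 experiments and 277 to 524 TPM in the other two. The first library of the 1 hr control group of the first experiment held 148.1 TPM of stromal markers, against 1.53 to 15.98 TPM in the other libraries of that experiment. The second library of the 20 min control group held 120.7 TPM of RNAs that carry no poly(A) tail, against 14.9 TPM in the first. The 4 tables were normalised separately, so levels are set side by side across experiments without a test.

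A stem-loop sequence in an annotated transcript marks a histone mRNA that could end without a tail. In the GENCODE vM21 transcripts, 86 of 55341 genes (0.155%) held the 16-base consensus of the histone stem-loop in any transcript. Of these, 47 were members: 46 of the 69 replication-dependent genes and 1 of the 17 variant genes, H2afx. A gene without a match may still have a stem-loop, because some annotated transcripts were short. Those of Hist1h4k and Hist1h2bl held 312 and 381 bases, under the 406 and 429 bases of the exons used for TPM. Of the 5 replication-dependent genes with a mean level of at least 1 TPM, 3 held the consensus in their longest transcript. In all 3, that transcript ran more than 100 bases past the stem-loop and held a poly(A) signal (AATAAA or ATTAAA) there. Of the 64 genes with a mean under 1 TPM, 42 held it, 20 of them with more than 100 bases past it and 14 with a poly(A) signal past it. The median distance from the stem-loop to the transcript end was 840 bases in the 3 genes and 65.5 bases in the 42. The sequences of the well expressed genes that hold one are given first, then 2 of the scarcely detected genes for comparison, with 5 bases on either side and the stem-loop in capitals.
Hist1h1c: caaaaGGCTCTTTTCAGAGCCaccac
Hist3h2a: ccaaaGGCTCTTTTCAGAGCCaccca
Hist1h4i: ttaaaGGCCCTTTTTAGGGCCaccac
H2afx: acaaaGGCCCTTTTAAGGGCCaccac
Hist1h2bg: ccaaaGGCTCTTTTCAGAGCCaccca
Hist1h2ad: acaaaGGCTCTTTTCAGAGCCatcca
Hist3h2a and Hist1h2bg shared all 26 bases, although their mean levels were 39.3 and 0.57 TPM. Past the stem-loop, the Hist3h2a transcript ran on for 1643 bases with 2 poly(A) signals and that of Hist1h2bg for 155 bases with none. Hist1h1c continued for 840 bases, Hist1h4i for 330 and H2afx for 822, while Hist1h2ad ended 42 bases past its stem-loop. The 2 other well expressed genes, Hist1h2bc and Hist2h2be, held no match in their annotated transcripts, which says only that the consensus letters are not in them. The exons used for the deposited TPM were shorter than these transcripts (722 of 1560 bases for Hist1h1c, 505 of 2146 for Hist3h2a and 400 of 727 for Hist1h4i), so reads past the stem-loop would not be counted for these genes.

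A group of 5 replication-dependent genes carried nearly all the signal of their class. Hist1h1c, Hist1h2bc, Hist3h2a, Hist2h2be and Hist1h4i together made 87.9% to 99.6% of the class's summed TPM (median 97.1%), which ranged between 25.4 and 383 TPM with a median of 142.6 TPM. The other 64 genes together gave 3 to 167 reads in a library (median 30). Hist1h1c (chr13:23738807-23739531, + strand, mm10), which encodes a linker histone H1, averaged 52.4 TPM over the libraries, between 1.71 and 223 TPM with a median of 42.6 TPM. Hist1h2bc (chr13:23684199-23692480, + strand), an H2B gene of the same cluster, averaged 39.6 TPM, between 4.88 and 90.2 TPM. Hist3h2a (chr11:58954685-58955192, + strand), an H2A gene, averaged 39.3 TPM, between 5.63 and 98.3 TPM. These 3 genes were at 1 TPM or more in all 45 libraries, and their ranges overlap almost wholly, so their order is not a difference. Hist2h2be (chr3:96221072-96223738, + strand), an H2B gene, averaged 4.55 TPM and reached 1 TPM in 36 libraries. Hist1h4i (chr13:22040960-22041362, - strand), an H4 gene, averaged 2.03 TPM, between 0 and 6.45 TPM, and reached 1 TPM in 31 libraries. The next gene, Hist1h2bg, averaged 0.57 TPM and reached 1 TPM in 8 libraries. Hist1h1d did so in 3, Hist1h3d, Hist2h2bb and Hist1h2ad in 2 each, and Hist3h2ba, Hist2h2aa2, Hist2h4 and Hist2h2ab in 1 each. Of these, Hist3h2ba at 3.14 TPM and Hist2h2ab at 2.56 TPM did so in the 1 hr control library that held the stromal markers. Replication-dependent genes are near copies of each other: a median of 54.1% of the 50-base stretches of a gene's transcript also occurred in transcripts of other genes. The share was 8.5% for Hist1h1c, 30.6% for Hist1h2bc, 31.5% for Hist3h2a, 28.9% for Hist1h4i and 0% for Hist2h2be, so levels of the scarce genes are uncertain.

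Among the variants, H3f3b stood above all other histone genes. H3f3b (chr11:116021961-116024504, - strand), 1 of a pair of genes for the H3 variant placed at active genes outside S phase, averaged 518 TPM, with a lowest value of 125, a median of 463 and a highest of 2078 TPM. Its partner H3f3a averaged 20.6 TPM (5.81 to 49.3 TPM), and 30.3% of its 50-base stretches occurred in 41 other genes, so part of its reads cannot be assigned. H2afy, which encodes macroH2A and is linked to repressed chromatin, averaged 97.0 TPM, between 63.6 and 177 TPM, a smaller ratio of highest to lowest value than for any other variant named here. H1f0, the linker histone of differentiated, non-dividing cells, averaged 46.0 TPM (4.28 to 102 TPM). H2afv and H2afz, which both encode the H2A.Z variant found at promoters, averaged 21.7 and 9.96 TPM. Of these, 69.6% of the H2afz stretches are shared with 6 other genes. H2afj, an H2A variant gene, averaged 17.9 TPM, and H2afx, whose product is phosphorylated beside DNA breaks, averaged 11.4 TPM with a median of 5.45 TPM. H2afy2, the second macroH2A gene, averaged 2.92 TPM. H1fx, a linker histone gene, averaged 0.392 TPM and reached 1 TPM in 4 libraries, and H3f3c reached at most 0.803 TPM. The summed level of the variants was 390.9 to 2406 TPM, with a median of 628.3 TPM.

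**Figure D1:**
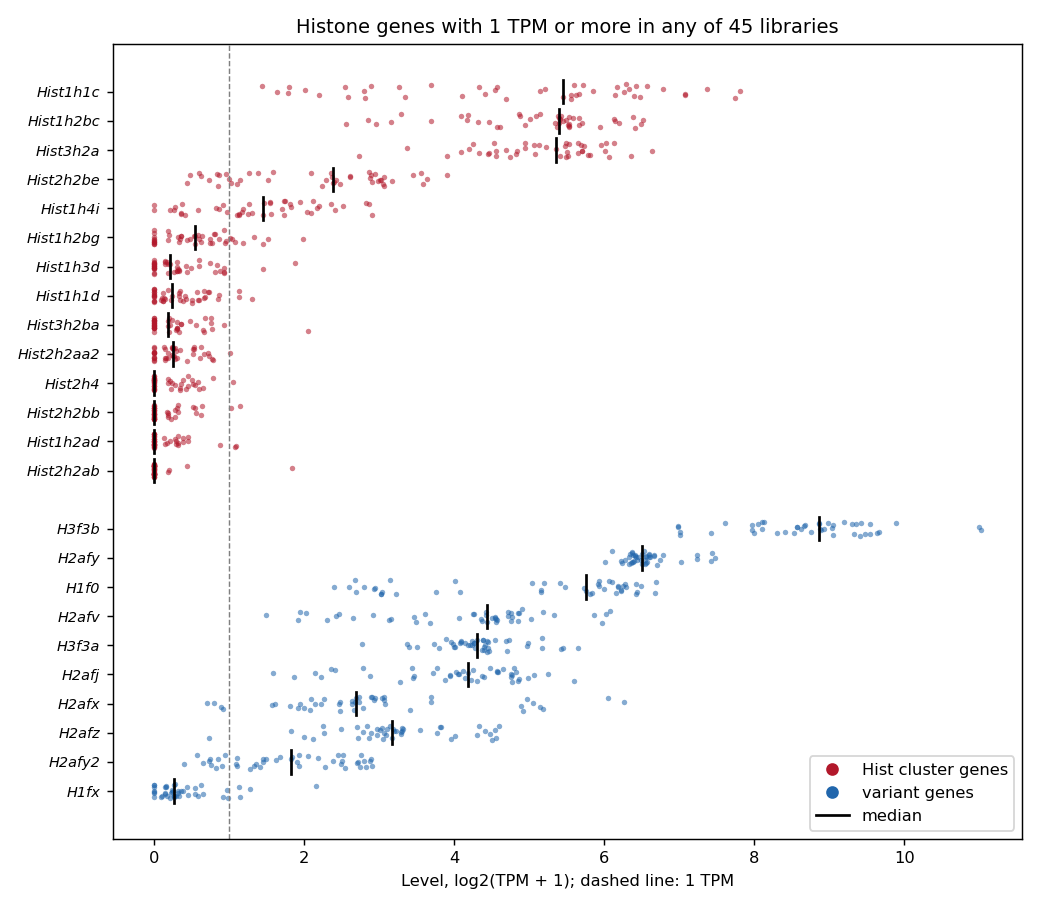
Levels of the 24 histone genes that reached 1 TPM in at least 1 library, as log2(TPM + 1), with 1 point for each of the 45 libraries and a bar at the median. H3f3b lies above all others with a median of 463 TPM, and 3 replication-dependent genes, Hist1h1c, Hist1h2bc and Hist3h2a, lie among the abundant variants.

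In control cells H3f3b and Hist1h1c rose within 20 to 60 min of lipid A, and several members of both classes were lower at 4 hr than at rest. H3f3b was at 125 and 128 TPM at 0 hr, 528 and 525 TPM at 1 hr and 946 TPM at 4 hr in the first experiment, and no library of a later time overlapped the resting ones. Its log2 change, on the log2(TPM + 1) scale used for all changes here, was 2.04 ± 0.10 (SE) at 1 hr and 2.89 ± 0.12 at 4 hr (limma, adjusted p = 6.87e-08 and 1.09e-08). In Arid1a f/f cells H3f3b was at 128 and 125 TPM at 0 hr, 505 and 527 TPM at 1 hr, and 409 and 377 TPM at 4 hr of LPS, so it was below its 1 hr level at 4 hr. In Pbrm1 f/f cells it was at 629 and 473 TPM at 4 hr against 193 and 171 TPM at 0 hr (1.58 ± 0.17, adjusted p = 8.98e-05). The fourth experiment placed the start of the rise earlier: 279 and 255 TPM at 0 min, 368 and 340 TPM at 20 min (log2 change 0.41 ± 0.07, adjusted p = 0.0106) and 791 and 806 TPM at 60 min (1.58 ± 0.07, adjusted p = 5.01e-10). The 20 min call was lost without the first 20 min control library, at a log2 change of 0.35.

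The region around the H3f3b start site (chr11:116024455-116024754, - strand, RefSeq, GRCm38.p6) is shown because H3f3b rose in every time course and the promoters of the 2 classes can be compared. RefSeq promoters, from 250 bases before the start site to 50 after it, were matched for 77 of the 86 genes. Capitals mark CCAAT, ATTTGCAT (the octamer, here as its reverse complement), TGACG (the core of a cAMP response element) and TATAAA, each searched on both strands.
H3f3b: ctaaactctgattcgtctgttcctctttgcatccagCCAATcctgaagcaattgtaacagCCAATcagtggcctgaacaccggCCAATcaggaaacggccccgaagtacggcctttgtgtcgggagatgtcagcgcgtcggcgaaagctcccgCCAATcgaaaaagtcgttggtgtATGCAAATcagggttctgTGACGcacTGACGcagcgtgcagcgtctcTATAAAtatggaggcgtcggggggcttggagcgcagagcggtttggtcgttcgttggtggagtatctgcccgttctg
It held 4 CCAAT matches, 1 octamer, 2 TGACG matches and 1 TATAAA match. The octamer, which is known from H2B gene promoters, occurred in 22.2% of the 63 promoters of replication-dependent genes, in 6.67% of the 15 variant promoters (that of H3f3b) and in 1.74% of all 32851 promoters. TATAAA occurred in 55.6%, 6.67% and 13.6% of the same 3 sets, CCAAT in 85.7%, 60% and 37.4%, and TGACG in 47.6%, 33.3% and 20.8%. These are letter matches and were not tested for binding.

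Hist1h1c rose early and was low by 4 hr. It was at 51.7 and 70.8 TPM at 0 min, 109 and 134 TPM at 20 min and 82.8 and 94.0 TPM at 60 min of lipid A in the fourth experiment, without overlap of either later time with the resting libraries. Its log2 change was 0.99 ± 0.14 at 20 min (adjusted p = 0.00214) and 0.54 ± 0.14 at 60 min (adjusted p = 0.00497). The first was lost without the second 20 min control library, the one with the tail-less RNAs, at 0.84, and the second without the first 0 min library, at 0.31. In the first experiment Hist1h1c was at 34.4 and 45.9 TPM at 0 hr, 77.3 and 79.6 TPM at 1 hr and 5.96 TPM in the single 4 hr library. The changes from rest were 0.96 ± 0.18 and -2.55 ± 0.22. In Arid1a f/f cells it was at 20.3 and 22.7 TPM at 0 hr, 49.7 and 56.6 TPM at 1 hr and 8.58 and 16.3 TPM at 4 hr of LPS. The 1 hr change was 1.27 ± 0.33 (adjusted p = 0.0166), a call that leaving out any 1 of the 4 libraries ends, at 1.17 to 1.36, and the 4 hr libraries lay below the resting ones but were not called. In Pbrm1 f/f cells it fell by 2.10, to 6.02 and 6.41 TPM at 4 hr against 24.9 and 36.0 TPM at 0 hr.

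The counts of changed members are read against the shares over all genes tested. At 1 hr in the first experiment, 3 members rose and 2 fell of 15 tested, where 9.9% of all 11531 genes rose and 22.3% fell. With TPM as deposited alone the split was 3 higher and 6 lower, and after median-ratio scaling alone 5 and 2; the median log2 change of all genes was -0.38 on deposited TPM and -0.04 after scaling. Without the 1 hr library that held stromal markers 4 of these 5 calls remained, with H3f3b at 2.04, Hist1h1c at 0.98, Hist3h2a at -1.23 and Hist2h2be at -1.27. At 4 hr 2 rose and 7 fell, against 20.1% and 43.2% of all genes, and after scaling alone the split was 6 and 7. In Arid1a f/f cells 3 of 16 rose and 1 fell at 1 hr (13.6% and 21.6% of all genes; 3 and 2 with deposited TPM alone), and 1 rose and 4 fell at 4 hr (17.9% and 39%; 4 and 4 after scaling alone). In Pbrm1 f/f cells 2 of 13 rose and 8 fell at 4 hr (16% and 37%), and the fallen ones were 5 of 9 variant and 3 of 4 replication-dependent genes. In the fourth experiment 2 of 18 rose and none fell at 20 min (0.736% and 0.364%), and 3 rose and 1 fell at 60 min (7.47% and 19.1%; 3 and 6 with deposited TPM alone). On deposited TPM the median change of all genes was -0.84 at 4 hr in the first experiment, -0.63 in the second, -0.75 in the third and -0.33 at 60 min in the fourth. The members that fell at 4 hr were thus near the share of all genes in the first experiment, under it in the second and above it in the third.

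The linker histone gene H1f0 and the H2A.Z gene H2afv fell at 4 hr in all 3 experiments that sampled it. H1f0 fell by 3.08 ± 0.14 in the first experiment, to 5.96 TPM at 4 hr against 59.9 and 55.9 TPM at 0 hr. Its change was -1.91 in Arid1a f/f cells (7.84 and 8.39 TPM against 31.8 and 34.6 TPM) and -2.70 in Pbrm1 f/f cells (5.47 and 12.5 TPM against 59.8 and 59.6 TPM). H2afv fell by 3.02 in the first experiment, to 2.86 TPM against 28.9 and 31.6 TPM. Its change was -1.88 in Arid1a f/f cells (15.8 and 18.2 TPM against 63.9 and 66.5 TPM) and -2.48 in Pbrm1 f/f cells (1.81 and 4.54 TPM against 19.8 and 22.2 TPM). H1f0 was not low at 1 hr, when it rose by 0.67 in Arid1a f/f cells (51.9 and 55.2 TPM). Hist2h2be also fell at 4 hr, with changes of -2.47, -2.36 and -2.31, to at most 1.41 TPM in the 4 hr control libraries against 6.43 to 14.0 TPM at 0 hr. It had already fallen at 1 hr in the first 2 experiments (-1.06 ± 0.20 and -0.73) and at 60 min in the fourth (-0.62). These early calls were lost without the first 0 hr or the second 1 hr library, without the first 1 hr library, and without the first 0 min or first 60 min library of the 3 experiments in turn. H2afy rose at 4 hr by 0.29 ± 0.12 in the first experiment (129 TPM against 103 and 109 TPM) and by 0.59 in Pbrm1 f/f cells (172 and 100 TPM against 84.0 and 89.7 TPM). The call was lost without the first 0 hr library in the first experiment (log2 change 0.24), and in Pbrm1 f/f cells without either 0 hr library or the first 4 hr library (0.21 to 0.64). H2afx fell by 2.996 ± 0.19 in Arid1a f/f cells, where its resting level of 30.2 and 28.8 TPM was well above the 4.54 to 9.61 TPM of the other resting libraries, to 2.04 and 3.80 TPM at 4 hr. In the first experiment and in Pbrm1 f/f cells it changed by -1.59 and -1.90 at 4 hr, and the call in the first was lost without the second 0 hr library. H2afj changed by -1.73 and -2.02 in the same 2 experiments, the first lost without the same library. Hist3h2a fell at 1 hr in the first, by 1.41 ± 0.18 (17.4 and 22.6 TPM against 45.2 and 65.6 TPM). H3f3a and H2afz of the first experiment differed between the 0 hr libraries themselves (35.1 and 5.81 TPM for H3f3a, 3 and 10.6 TPM for H2afz) and were not called.

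Genes of S phase also changed in these time courses. Of 26 listed genes of DNA replication, 16 of 25 tested fell and 2 rose at 4 hr in the first experiment, 19 of 26 fell and 2 rose in Arid1a f/f cells and 15 of 24 fell and 1 rose in Pbrm1 f/f cells. Over all genes 43.2%, 39% and 37% fell and 20.1%, 17.9% and 16% rose, in that order. At 1 hr 1 of 25 replication genes rose in the first experiment (9.9% of all genes). In Arid1a f/f cells 21 of these genes rose and 1 fell at 1 hr (13.6% and 21.6% of all genes). Their summed level in Arid1a f/f cells was 473.8 and 466.9 TPM at 0 hr, 753.7 and 746.0 TPM at 1 hr and 221.1 and 245.3 TPM at 4 hr. Daxx, a chaperone of the H3 variant that H3f3b encodes, rose by 2.93 at 4 hr in the first experiment (451 TPM against a mean of 58.8 TPM) and by 4.15 in Arid1a f/f cells (a mean of 429 TPM against 23.1 TPM). Asf1b, a chaperone of new H3 and H4, fell, with changes of -2.33 and -1.76. Fewer cycling cells and less RNA per cell cannot be told apart in bulk samples such as these, and the part of S phase in the changes of histone genes was not tested.

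**Figure D2:**
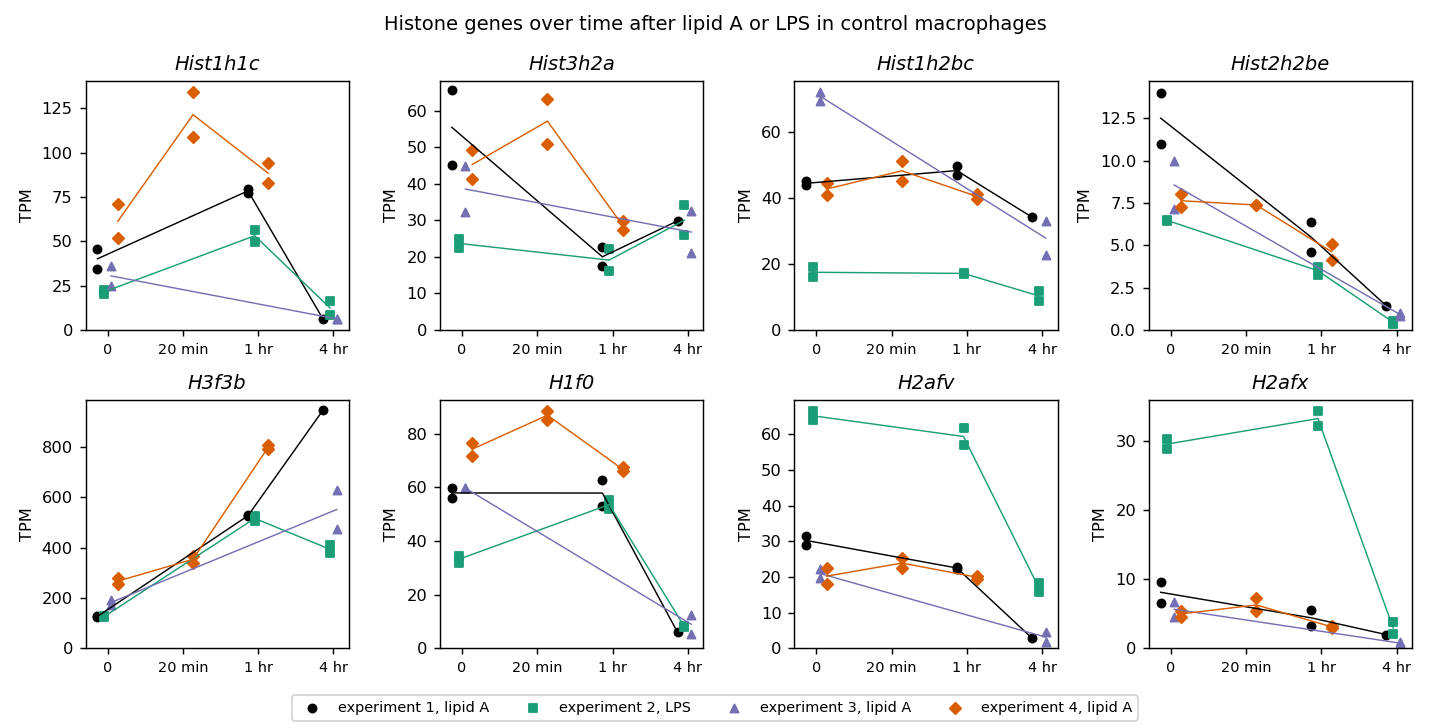
TPM of histone genes in control cells over time after lipid A or LPS, with 1 point per library and lines that join group means; times are evenly spaced and not to scale, and the 4 hr control of the first experiment is 1 library. H3f3b is higher at every later time than at rest, Hist1h1c peaks at 20 to 60 min and is low at 4 hr, and H1f0 and H2afv are low at 4 hr.

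Loss of Arid1a, a subunit of the canonical SWI/SNF complex, came with lower transcript levels of 4 of the 5 abundant replication-dependent genes at 1 hr and of 3 at 4 hr, and with higher levels of most S phase genes. At 1 hr of LPS 8 of 16 tested members fell and none rose (4 of 6 replication-dependent and 4 of 10 variant genes), against 18.4% of all 11798 genes that rose and 16.8% that fell; with deposited TPM alone 1 was higher and 8 lower. At 4 hr 6 fell and none rose, 3 of each class, where 14.1% of all genes rose and 10.8% fell. Hist1h1c was at 9.18 and 11.97 TPM in Arid1a-/- cells against 49.7 and 56.6 TPM in control cells at 1 hr. At 4 hr it was at 2.45 and 4.81 TPM against 8.58 and 16.3 TPM. Both knockout libraries lay below both control libraries at each time, with log2 changes of -2.23 ± 0.33 (adjusted p = 0.0015) and -1.52 ± 0.33 (adjusted p = 0.012). The 4 hr call was lost without the first Arid1a-/- library, at -1.15. Hist1h2bc was at 7.92 and 6.75 TPM in Arid1a-/- cells against 17.2 and 17.0 TPM at 1 hr (-1.12 ± 0.16, adjusted p = 0.000403). At 4 hr it was at 4.88 and 6.23 TPM against 8.74 and 11.9 TPM (-0.78, lost without the first Arid1a-/- library, at -0.63). Hist3h2a was at 9.34 and 5.63 TPM against 16.1 and 22.1 TPM at 1 hr (-1.26 ± 0.25, adjusted p = 0.00509). The 4 hr libraries were at 14.0 and 19.0 TPM against 25.9 and 34.2 TPM (-0.83). The 4 hr call for Hist3h2a was lost without either control library or the first Arid1a-/- library, at -1.02 to -0.62. Hist2h2be fell by 0.61 at 1 hr (1.87 and 2.01 TPM against 3.27 and 3.72 TPM), lost without the second control library. At 4 hr it gave 0.663 and 0.391 TPM against 0.544 and 0.36 TPM, or 8 to 15 reads a library.

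The other 64 replication-dependent genes are scarce, and their sums were not tested. At 1 hr they summed to 3.10 and 3.65 TPM in Arid1a-/- cells (17 and 18 reads) against 6.91 and 6.92 TPM in control cells (36 and 37 reads). At 4 hr the groups overlapped, at 3.07 and 0.846 TPM in Arid1a-/- cells against 2.02 and 3.89 TPM in control cells. Hist1h4i was at 0.956 and 0.284 TPM against 1.15 and 2.35 TPM and was not called.

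Among the variants, H2afj fell at both times in Arid1a-/- cells, to 5.87 and 8.73 TPM against 12.7 and 18.0 TPM at 1 hr (-0.98). At 4 hr it was at 2.002 and 4.12 TPM against 6.36 and 9.85 TPM (-1.19), and each call was lost without 2 or more of the libraries in turn. H2afv fell to 39.1 and 35.5 TPM against 57.1 and 61.7 TPM at 1 hr (-0.66, adjusted p = 0.000554). Its 4 hr levels were 11.2 and 11.8 TPM against 15.8 and 18.2 TPM (-0.52). H1f0 was at 35.5 and 34.6 TPM against 51.9 and 55.2 TPM at 1 hr (-0.60), and its 4 hr libraries, at 6.59 and 7.19 TPM against 7.84 and 8.39 TPM, were not called. H3f3b fell by 0.26 ± 0.09 at 1 hr (470 and 394 TPM against 505 and 527 TPM, adjusted p = 0.0462). The call was lost without either control library or the second Arid1a-/- library, at -0.29 to -0.13. H2afx, which holds the stem-loop shown above, was at 29.3 and 35.4 TPM against 32.1 and 34.2 TPM at 1 hr and did not pass. H2afz fell by 0.48 at 4 hr (15.1 and 14.6 TPM against 23.2 and 19.1 TPM), lost without the first control or the second Arid1a-/- library.

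The DNA replication genes went the other way in the same libraries: 25 of 26 rose at 1 hr and 24 of 26 at 4 hr, and none fell. Their summed level was 1483 and 1512 TPM in Arid1a-/- cells against 753.7 and 746.0 TPM in control cells at 1 hr, and 513.9 and 522.5 TPM against 221.1 and 245.3 TPM at 4 hr. Mcm2, a subunit of the replicative helicase, rose by 1.80 at 1 hr (means of 51.8 TPM in Arid1a-/- and 14.1 TPM in control cells). Ccne1, the cyclin of S phase entry, rose by 1.84. Of the histone chaperones 15 of 24 rose and 2 fell at 1 hr, among them Chaf1b, a subunit of the replication-coupled assembly factor, by 1.23 (41.8 TPM in Arid1a-/- and 17.1 TPM in control cells). At 4 hr 10 rose and none fell. Of the histone mRNA processing genes 9 of 16 rose and 1 fell at 1 hr, with Slbp at 26.5 TPM in Arid1a-/- cells against 15.9 TPM in control cells (log2 change 0.71), and 3 rose and 1 fell at 4 hr. The list counts of this comparison are to be read against all genes. Of those, 18.4% rose and 16.8% fell at 1 hr, and 14.1% and 10.8% at 4 hr. RNAs without a poly(A) tail, of which 3 were tested, gave no call, with sums of 5.81 and 5.04 TPM in Arid1a-/- cells against 2.63 and 7.37 TPM in control cells at 1 hr. Cell type markers moved in the same libraries. At 1 hr 6 of 10 macrophage markers fell and 1 rose, with sums of 16180 and 16090 TPM in Arid1a-/- cells against 21270 and 21050 TPM in control cells. At 4 hr 3 fell and 1 rose, with sums of 15510 and 16320 TPM against 15330 and 14810 TPM. Of 4 granulocyte markers tested none was called at 1 hr and 2 rose at 4 hr (sums of 30.97 and 38.45 TPM against 26.48 and 16.71 TPM). Stromal markers, mostly Kdr, which rose at both times, summed to 65.0 and 58.3 TPM in Arid1a-/- cells against 32.9 and 33.1 TPM in control cells at 4 hr. The part of these markers in the result was not tested.

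Loss of Pbrm1, the defining subunit of the PBAF complex, gave no call among the 13 members tested at 4 hr of lipid A. No member had an unadjusted p under 0.05, a weighted count fit (limma-voom) of the recovered reads called none, none was past 0.05 in the authors' deposited table, and of all 11044 genes 0% rose and 0.00905% fell. Hist1h1c was at 3.58 and 4.97 TPM in Pbrm1-/- cells against 6.02 and 6.41 TPM in control cells, with a log2 difference of -0.46 and a 95% interval of -0.96 to 0.03. H3f3b was at 684 and 678 TPM against 629 and 473 TPM (0.32, -0.06 to 0.70), and H2afx at 0.862 and 0.739 TPM against 0.63 and 0.898 TPM (0.03, -0.42 to 0.49). The interval for H2afz, whose control libraries were at 6.41 and 0.654 TPM, ran from -1.88 to 2.64, so little is limited for that gene. Without the first control library 4 members were called: H1f0 at -0.91, H3f3b at 0.52, H2afy at 0.58, and H2afz at 1.46.

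The compounds were compared with control cells that they share, first at 20 min of lipid A, when the stimulus alone had changed 1.1% of all genes in control cells. With BRDK98 6 of 18 tested members rose and none fell (4 of 9 replication-dependent and 2 of 9 variant genes), where 0.502% of all 11549 genes rose and 0.849% fell. Of the risen members, Hist1h2ad was tested only because both BRDK98 libraries at 20 min reached 1 TPM. Its call thus rests on the group that let it into the test. Hist1h1d, not called, was tested for the same reason. With BRM014 2 fell, Hist1h1c and H3f3b, and none rose (0.0606% and 0.329% of all genes), and ACBI1 gave no call (0.0866% and 0.0606%). Hist1h1c was at 87.7 and 84.9 TPM with ACBI1, 75.7 and 69.5 TPM with BRM014 and 223 and 214 TPM with BRDK98, against 109 and 134 TPM in control cells. Only the BRDK98 libraries lay above the control, with a log2 change of 0.85 ± 0.14 (adjusted p = 0.00577), and BRM014 gave -0.73 ± 0.14 (adjusted p = 0.0441). H3f3b was at 265 and 272 TPM with ACBI1, 250 and 249 TPM with BRM014 and 433 and 466 TPM with BRDK98, against 368 and 340 TPM in control cells. Its changes were -0.50 ± 0.07 with BRM014 (adjusted p = 0.0121) and 0.34 ± 0.07 with BRDK98, and ACBI1 gave -0.40 (95% interval -0.54 to -0.25) with adjusted p-values of 0.0399 on deposited and 0.11 on scaled TPM. With ACBI1, 4 members had an unadjusted p under 0.05 (Hist1h1c, Hist1h2bc, H3f3b and H1f0), and limma-voom called none.

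H2afx was at 11.9 TPM in both BRDK98 libraries against 5.34 and 7.21 TPM in control cells at 20 min (0.84, adjusted p = 0.00897). Hist2h2be was at 10.8 and 11.4 TPM with BRDK98 against 7.37 and 7.38 TPM (0.53), and Hist1h2bc at 60.8 and 68.9 TPM against 45.2 and 51.2 TPM (0.42). Hist1h2ad, one of the scarce genes whose stem-loop is shown above, was at 1.11 and 1.12 TPM with BRDK98 against 0.246 and 0.301 TPM, or 11 and 11 against 3 and 3 reads. The other 64 replication-dependent genes summed to 13.3 and 15.8 TPM with BRDK98 against 6.85 and 9.32 TPM in control cells. All 6 calls with BRDK98 and both with BRM014 were lost without at least 1 library: leaving out 1 library at a time left 0 to 2 members called with BRDK98 and none with BRM014. Without the control library that held the tail-less RNAs the BRDK98 calls for Hist1h1c and H2afx remained, at 1.00 and 1.03, and the other 4 did not.

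At 60 min the 3 compounds differed most, and H2afx with BRM014 showed the largest change of any member. H2afx was at 2.505 and 2.84 TPM with ACBI1, 65.3 and 75.7 TPM with BRM014 and 5.87 and 5.45 TPM with BRDK98, against 2.99 and 3.26 TPM in control cells. The BRM014 libraries (1367 and 1604 reads) lay far above all others of the fourth experiment, where H2afx was otherwise at most 11.9 TPM. In the second experiment it reached 35.4 TPM. The log2 change with BRM014 was 4.11 ± 0.15 (limma, adjusted p = 2.28e-10) and was called without each library in turn. BRDK98 gave 0.69 (adjusted p = 0.00609), lost without the first control or the first BRDK98 library. Of the genes near H2afx on chromosome 9, Dpagt1, upstream on the same strand, was at 20.3 and 19.1 TPM with BRM014 against 15.0 and 16.8 TPM in control cells (log2 change 0.30). C2cd2l was at 10.5 and 13.3 TPM against 6.60 and 7.29 TPM (0.70). The 2 BRM014 libraries differed from each other for the complex subunits Arid1a (7.66 and 19.0 TPM) and Pbrm1 (6.64 and 13.7 TPM).

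With BRM014 at 60 min 11 of 18 members rose and none fell, 6 of 9 replication-dependent and 5 of 9 variant genes, where 16.9% of all genes rose and 13.5% fell. H3f3b was at 2078 and 2040 TPM with BRM014, 743 and 712 TPM with ACBI1 and 586 and 644 TPM with BRDK98, against 791 and 806 TPM in control cells. The changes were 1.37 ± 0.07 with BRM014 (adjusted p = 1.75e-08) and -0.38 with BRDK98 (adjusted p = 0.00168), and ACBI1 was not called. Hist1h2bc rose with BRM014 to 90.2 and 84.1 TPM against 39.7 and 41.2 TPM (1.09 ± 0.08, adjusted p = 9.89e-07). Hist1h1c rose to 134 and 164 TPM with BRM014 (0.74, adjusted p = 0.0014). It fell to 42.6 and 47.5 TPM with ACBI1 (-0.96, adjusted p = 0.000551) and to 48.2 and 45.9 TPM with BRDK98 (-0.89, adjusted p = 0.000517), against 82.8 and 94.0 TPM in control cells. With BRDK98, Hist1h1c thus lay above the control at 20 min and below it at 60 min in all libraries. Hist3h2a rose to 44.0 and 51.0 TPM with BRM014 (0.71) and to 55 and 60.9 TPM with ACBI1 (0.99, adjusted p = 6.69e-05), against 29.8 and 27.4 TPM in control cells. Hist1h4i rose with BRM014 to 4.70 and 6.08 TPM against 1.47 and 3.57 TPM (0.92), lost without the first control library at 0.48. H2afj (30.6 and 26.4 TPM against 17.7 and 15.2 TPM, 0.76) and H2afz (12.6 and 13.2 TPM against 7.996 and 7.32 TPM, 0.68) rose with BRM014, and both calls were lost without the second control or the first BRM014 library. Hist1h3d (7 and 21 reads against 1 and 1) and Hist1h2ad (3 and 7 reads against 1 and 2) were called on very few reads. Hist1h3d was tested only because the second BRM014 library at 60 min and the second BRDK98 library at 20 min reached 1 TPM. Its call thus rests in part on a library that let it into the test.

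ACBI1 and BRDK98 at 60 min gave 5 and 4 calls. With ACBI1 2 members rose and 3 fell (11.6% of all genes rose and 14.5% fell; 18.9% and 13.5% with voom and TMM scaling). In the same libraries 4 of 7 granulocyte markers fell and none rose, with sums of 277.4 and 292.2 TPM with ACBI1 against 433.5 and 454.4 TPM in control cells. Pf4, the only 1 of 8 erythroid and megakaryocyte markers that was tested, fell by 1.40. The sum of these markers was mostly Pf4, so it adds little: 268.2 and 225.7 TPM against 607.2 and 699.5 TPM in control cells. Pf4 averaged 415 to 1010 TPM in each of the 4 experiments. Of 10 macrophage markers 2 rose and 1 fell, and the part of these markers in the result was not tested. H2afv fell to 10.02 and 10.2 TPM with ACBI1 against 19.5 and 20.4 TPM (-0.92, adjusted p = 0.000674) and H2afy2 to 1.12 and 1.66 TPM against 4.21 and 3.83 TPM (-1.08, adjusted p = 5.80e-05), the lowest H2afy2 levels of the fourth experiment. H1f0 rose by 0.15 with ACBI1 (73.7 and 74.8 TPM against 66.0 and 67.5 TPM, adjusted p = 0.0497), a call that leaving out any of the 4 libraries ends. With BRDK98 1 member rose and 3 fell (6.04% and 5.56% of all genes), and H1f0 fell to 43.5 and 41.4 TPM (-0.64, adjusted p = 3.80e-06).

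Slbp and Nasp rose with BRM014 and with BRDK98 at 60 min. Slbp was at a mean of 43.3 TPM with BRM014 and 18.0 TPM with BRDK98 against 10.4 TPM in control cells (log2 changes 1.94 and 0.74), and Nasp, a chaperone of free H3 and H4, was at 34.8 and 21.4 TPM against 12.7 TPM (1.38 and 0.70). The whole lists are to be read against the shares of all genes at 60 min, which were 11.6% higher and 14.5% lower with ACBI1, 16.9% and 13.5% with BRM014, and 6.04% and 5.56% with BRDK98. Of 15 processing genes 1 rose and 1 fell with ACBI1, 2 rose and 2 fell with BRM014, and 2 rose and none fell with BRDK98. Of 24 chaperones 2 rose and 6 fell with ACBI1, 5 rose and 1 fell with BRM014, and 3 rose and 1 fell with BRDK98. Of 25 DNA replication genes 3, 5 and 5 rose with the 3 compounds in that order and none fell; the BRDK98 sum of 751.9 and 784.5 TPM, against 294.2 and 308.3 TPM in control cells, came mostly from Pcna, the replicative sliding clamp (a mean of 554 TPM against 141 TPM). At 20 min none of the 15, 24 and 25 genes of these lists was called with any compound. The first BRDK98 library at 60 min held 34.1 TPM of tail-less RNAs, against 11.7 TPM in the second, and 8.08 and 5.54 TPM in control cells.

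The effects at 60 and 20 min were compared by a test of the difference itself. Of 18 tested members 9 differed with BRM014, 5 with BRDK98 and 4 with ACBI1 (13.4%, 6.65% and 19% of all genes). The 9 include Hist1h3d, let into the test by 1 BRM014 library at 60 min and 1 BRDK98 library at 20 min. The 5 include Hist1h2ad, tested only through the BRDK98 libraries at 20 min, so neither gene is separate support. The effects of Arid1a loss at 4 and 1 hr differed for 2 members, H3f3b and Hist2h2be (16.2% of all genes). The number of members was near the share of all genes with ACBI1 and under it for Arid1a loss.

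**Figure D3:**
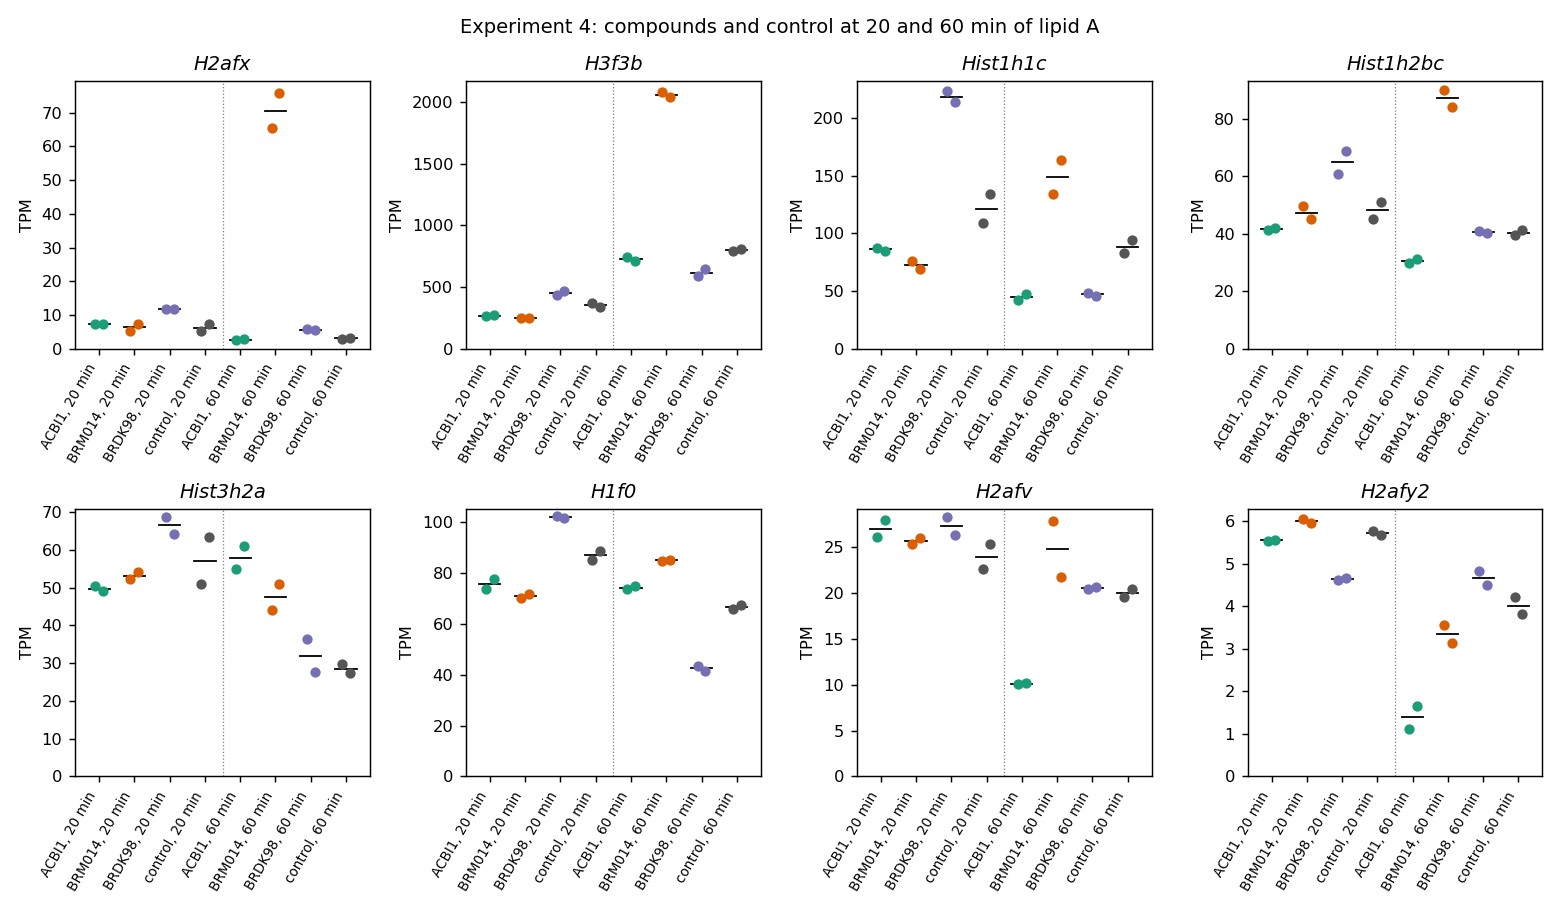
TPM of 8 histone genes at 20 and 60 min of lipid A with ACBI1, BRM014 or BRDK98 and in control cells, with 1 point per library. H2afx and H3f3b reach 75.7 and 2078 TPM with BRM014 at 60 min, and Hist1h1c is high with BRDK98 at 20 min and low with ACBI1 and BRDK98 at 60 min.

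At 4 hr the compounds were set against the single control library, so the fit assumes that this library varies like those of the other groups, and it could not be left out. With ACBI1 5 of 15 members fell and none rose (22.3% of all 11531 genes rose and 13.5% fell; 2 higher and 5 lower with deposited TPM alone). With BRM014 2 rose and 4 fell (29.3% and 16.4%; 4 and 4 with deposited TPM alone), and with BRDK98 6 rose and 1 fell (24.7% and 12.4%; 6 and 3 after scaling alone). The shares over all genes depend on the fit: voom on the recovered reads with TMM scaling turned the balance, with 15% of all genes higher and 22.2% lower with ACBI1, 21.7% and 26.2% with BRM014, and 17.1% and 26% with BRDK98. The members were then 0 higher and 6 lower, 0 and 4, and 5 and 3. H3f3b was at 315 and 272 TPM with ACBI1, 377 and 404 TPM with BRM014 and 745 and 651 TPM with BRDK98, against 946 TPM in the control library. It fell with all 3, with changes of -1.69 ± 0.12, -1.28 ± 0.12 and -0.44 ± 0.12 (adjusted p = 5.10e-06, 8.74e-06 and 0.00763), the last lost without the second BRDK98 library. Hist1h1c was at 2.48 and 1.71 TPM with ACBI1, 3.04 and 2.12 TPM with BRM014 and 19.2 and 22.4 TPM with BRDK98, against 5.96 TPM in the control library. It fell with the first 2 compounds (-1.18 ± 0.22 and -0.97 ± 0.22) and rose with BRDK98 (1.64 ± 0.22, adjusted p = 0.00235). H2afy2 was at 0.565 and 1.42 TPM with ACBI1 and 0.800 and 0.877 TPM with BRM014 against 2.55 TPM in the control library (-0.87 and -0.95). The ACBI1 call was lost without the first ACBI1 library, at -0.56. H2afy fell by 0.72 with ACBI1 (74.0 and 83.2 TPM against 129 TPM).

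With BRDK98 at 4 hr the rise took in all but 1 of the abundant replication-dependent genes. Hist1h2bc was at 89.2 and 82.2 TPM with BRDK98 against 34.2 TPM (1.3 ± 0.10, adjusted p = 0.000123), and Hist3h2a at 80.8 and 98.3 TPM against 29.8 TPM (1.55 ± 0.22, adjusted p = 0.00888). Hist1h4i was at 4.10 and 4.32 TPM, or 14 and 14 reads, against 0 reads in the control library, and H1f0 was at 15.8 and 15.2 TPM against 5.96 TPM (1.25 ± 0.14, adjusted p = 0.000765). H2afv was at 7.92 and 7.73 TPM against 2.86 TPM (1.19), still below the 28.9 and 31.6 TPM of resting cells. Hist2h2be, at 0.792 and 0.51 TPM against 1.41 TPM, was not called. With BRM014 H2afv also rose (6.53 and 5.28 TPM, 0.83), as did Hist1h4i (3 and 4 reads against 0), the H2afv call lost without the first BRM014 library. Hist1h2bc fell by 0.27 ± 0.10 with ACBI1, a call lost without either ACBI1 library. DNA replication genes rose with all 3 compounds, 8, 12 and 10 of 25 with ACBI1, BRM014 and BRDK98, and none fell. They summed to 429 and 426.5, 809.6 and 743.9, and 255.7 and 253.1 TPM against 138.6 TPM. Over all genes 22.3%, 29.3% and 24.7% rose with the same compounds, or 15%, 21.7% and 17.1% with voom and TMM scaling.

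**Figure D4:**
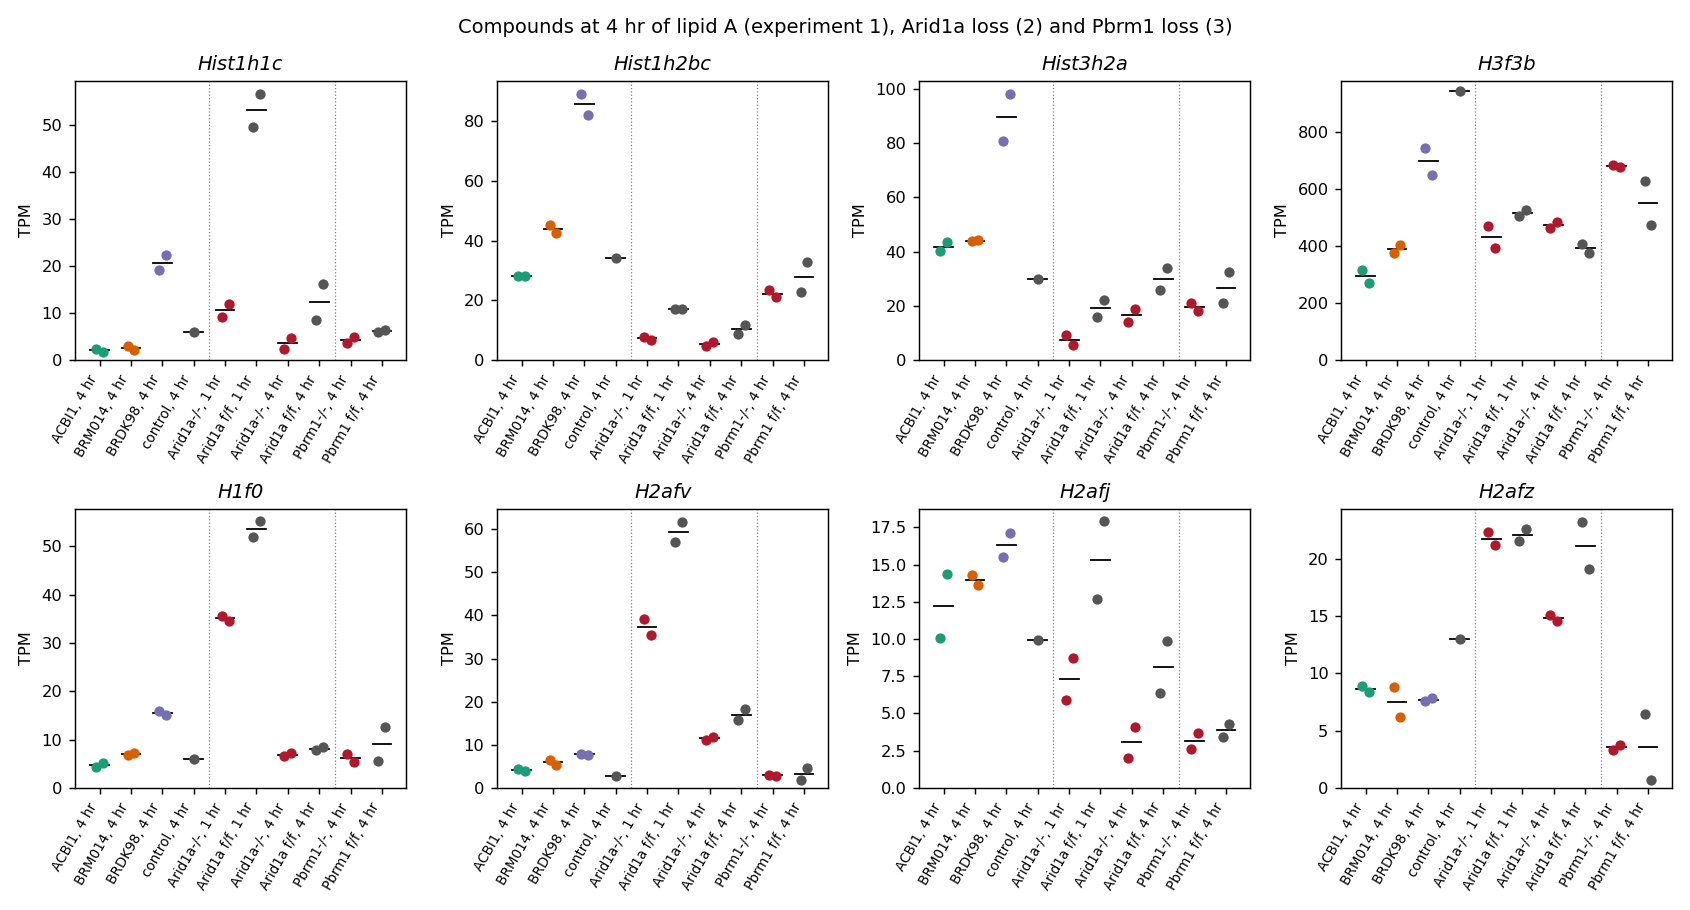
TPM of 8 histone genes at 4 hr with the 3 compounds, and in Arid1a-/- and Pbrm1-/- cells, each left of its control, with 1 point per library. Hist1h1c, Hist1h2bc and Hist3h2a lie above the single control library with BRDK98 and below the control libraries in Arid1a-/- cells at 1 and 4 hr.

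The compounds were also compared directly, as 3 pairs at each of 3 times. The difference on deposited TPM does not use the shared control libraries, but these still enter the scaling, the filter and the estimate of the spread. Between BRM014 and ACBI1 at 20 min no member was called (0.346% of all genes were), with log2 differences of -0.25 (95% interval -0.55 to 0.05) for Hist1h1c and -0.11 (-0.26 to 0.04) for H3f3b. The interval for Hist1h2bc, 0.00 to 0.36, was the only one that did not reach below 0 at an unadjusted level, and limma's adjusted p was 1 for all. At 60 min 11 members were higher with BRM014 than with ACBI1 and none lower (29.1% and 19.6% of all genes), with H2afx at 4.28 ± 0.15, Hist1h1c at 1.70 ± 0.14, H3f3b at 1.499 ± 0.07 and Hist1h2bc at 1.49 ± 0.08. At 4 hr only 2 members differed between them, H1f0 by 0.49 and Hist1h2bc by 0.62, both higher with BRM014 (17.5% of all genes were higher and 14.1% lower).

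Some members differed between BRDK98 and each of the other compounds at each time, but against ACBI1 at 60 min their number was near the share of all genes. At 20 min 8 of 18 members were higher with BRDK98 than with ACBI1 and none lower (0.52% and 1.06% of all genes). Against BRM014 9 were higher and none lower (0.39% and 0.597%). Hist1h1c was at 1.33 ± 0.14 and 1.58 ± 0.14 and H3f3b at 0.74 ± 0.07 and 0.85 ± 0.07. Each count held 6 of 9 replication-dependent genes, more than the 5 abundant ones, so scarce genes were among them. Hist1h2ad and Hist1h1d were tested only through the BRDK98 libraries at 20 min, and Hist1h3d in part. A call of any of these there is no support, so both counts may be too high. At 60 min 3 members were higher and 3 lower with BRDK98 than with ACBI1 (21.5% and 14.3% of all genes), and 10 lower and none higher than with BRM014 (14.5% of all genes higher and 12.4% lower), with H2afx at -3.42 ± 0.15. At 4 hr 8 of 15 members were higher with BRDK98 than with ACBI1 and none lower (21.6% and 15.4% of all genes). Against BRM014 7 were higher and none lower (22.7% and 22.1%). Hist1h1c was among them in both pairs, at 2.82 ± 0.18 and 2.61 ± 0.18.

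**Figure D5:**
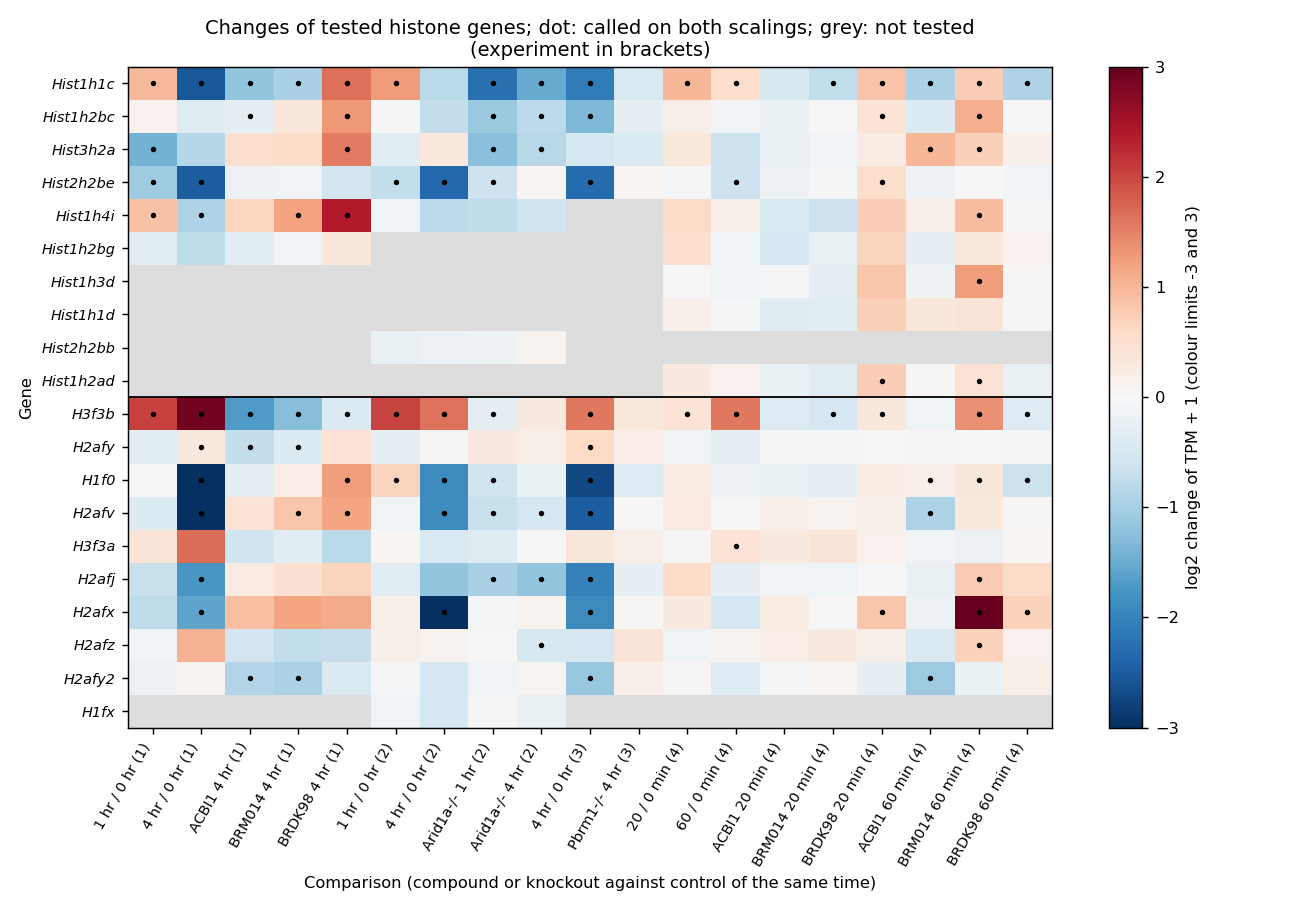
Heatmap of log2 changes on the log2(TPM + 1) scale for the 20 histone genes tested in any experiment (rows) in 19 comparisons (columns), with colours limited at 3 in each direction, a dot where the change was called on both scalings and grey where the gene was not tested. The columns for Arid1a loss hold only decreases among the called genes, and that for BRM014 at 60 min only increases.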

How the data were processed

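RNA was measured as poly(A)-selected, stranded, 50-base single-end libraries, per the labels' protocols. The authors deposited 4 tables of TPM per gene, made with STAR 2.5.3a and HOMER on mm10 per the submitters' processing notes, with exon reads counted on both strands per the file headers; antisense reads therefore cannot be told apart. The deposited TPM columns summed to 526364 to 658440 and gave whole reads, within 0.1 read, for 100% of low values, with 7015055 to 27527751 exonic reads a library. The tables also hold the authors' deposited log2 fold changes and adjusted p-values, from DESeq2 per the submitters' processing notes, set beside the results here: of 99 member calls, 77 were past 0.05 with the same sign in the authors' deposited table and none with the opposite one, and 23 of 210 tested members not called here were past 0.05 there. One of a pair of identical columns (1 column) was not used.

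From the deposited TPM, log2(TPM + 1) values of genes at 1 TPM or more in at least 2 libraries of an experiment were fitted with limma 3.58.1 (R 4.3.3; trend and robust moderation, all groups of the experiment, Benjamini-Hochberg over 11531, 11798, 11044 and 11549 genes). A gene rose or fell when adjusted p was under 0.05 with the same sign on TPM as deposited and after median-ratio scaling; the larger p of the 2 is printed. TPM understate changes of low genes on this scale. The labels do not say whether replicates are separate cultures or animals, so p-values measure the spread between libraries, which may be technical. Named genes were the 6 with the highest mean in each class, members called without overlap at 5 TPM or more in a group (up to 6 in each direction and class), and up to 3 called genes of each other list at that level; scarcer called genes were named after their values were seen. The members and lists were chosen with earlier results of these data known. Tested on simulated data, calls recovered 32% of 2-fold and 86% of 4-fold changes for ACBI1 at 4 hr, 62% and 92% for 1 hr Arid1a-/- libraries, 68% and 97% for Pbrm1-/- libraries and 59% and 96% for BRM014 at 60 min. The simulated reads had the same fixed spread for every gene and the same mean levels in all groups, neither fitted to these libraries. Recovery can therefore be lower for genes whose real libraries differ more. Stem-loops and poly(A) signals were searched in GENCODE vM21 transcripts. Alternatives changed the scaling, filter, pseudocount, moderation, block and libraries, or used limma-voom on recovered reads.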

Additional observations from a re-analysis of the deposited data

Results flagged for a closer look

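In these results the effect of a perturbation differed between 2 times by a test of the difference itself (an interaction term in limma, adjusted over all genes; the values are log2 differences of the 2 effects). A higher or lower effect here means a more positive or more negative log2 change at the later time, not a stronger or weaker one. Every group had 2 libraries, too few to single one out within a group.

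With BRM014, 9 members had a higher effect at 60 min than at 20 min: H2afx by 4.11 ± 0.21 (adjusted p = 2.28e-08), H3f3b by 1.87 ± 0.10, Hist1h4i by 1.56 ± 0.32, Hist1h3d by 1.53 ± 0.39, Hist1h1c by 1.47 ± 0.20, Hist1h2bc by 1.11 ± 0.12, Hist3h2a by 0.80 ± 0.19, Hist1h2ad by 0.79 ± 0.22 and H1f0 by 0.63 ± 0.08. Over all genes 13.4% differed between the times. Those for Hist1h3d, Hist1h2ad and Hist3h2a were lost in 4, 5 and 3 of the 8 fits without 1 library, and the other 6 were kept in all 8. Hist1h3d was tested only because the second BRM014 library at 60 min and the second BRDK98 library at 20 min reached 1 TPM.

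With BRDK98, 5 members had a lower effect at 60 min (6.65% of all genes differed): Hist1h1c by -1.74 ± 0.20 (adjusted p = 4.88e-05), Hist1h2ad by -0.96 ± 0.22, H1f0 by -0.87 ± 0.08, H3f3b by -0.72 ± 0.10 and Hist2h2be by -0.61 ± 0.14. The differences for Hist1h1c, H1f0 and H3f3b were kept in all 8 fits without 1 library. Hist1h2ad was tested only because both BRDK98 libraries at 20 min reached 1 TPM, so its difference is no separate support.

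With ACBI1, 4 members differed (19% of all genes), all kept in all 8 fits: H2afv at -1.08 ± 0.16, H2afy2 at -1.04 ± 0.18, H1f0 at 0.35 ± 0.08 and Hist3h2a at 1.18 ± 0.19. The effect of Arid1a loss was more positive at 4 hr than at 1 hr on H3f3b (0.53 ± 0.13, adjusted p = 0.0432) and Hist2h2be (0.68 ± 0.19, adjusted p = 0.0403). Over all genes 16.2% differed, and each of the 2 was kept in 2 of the 8 fits. Both genes were lower in Arid1a-/- cells at 1 hr (-0.26 and -0.61), and neither was called at 4 hr. Hist2h2be was then at 0.36 to 0.663 TPM in both groups, where a decrease could hardly show. The number of members was near the share of all genes with ACBI1 and under it for Arid1a loss.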

How the results depend on the processing

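Counts of called histone genes that moved by more than 1.5 times did so as follows. With deposited TPM alone they were 9 at 1 hr in the first experiment, 9 at 4 hr of LPS in Arid1a f/f cells, 9 at 60 min of lipid A and 1 with ACBI1 at 20 min. At 4 hr of LPS they were 8 after scaling alone, 8 without a filter on low values and 8 with voom under either scaling, and at 60 min 7 with voom under either scaling. Without a filter they were 8 at 1 hr of LPS, 1 with BRM014 at 20 min and 18 with BRM014 at 60 min, and without trend or robust moderation 1 with BRM014 at 20 min. Among genes not called, H1f0 at 1 hr in the first experiment turned to 0.38 after scaling and 0.44 and 0.45 with voom, Hist1h2bc at 4 hr there to 0.38, 0.49 and 0.60, Hist1h2bc at 60 min to 0.29, 0.31 and 0.31, and H1f0 at 60 min to 0.22, 0.24 and 0.24; the cause was not tested. Over all genes, the balance of higher against lower calls turned in 8 of 19 comparisons under both voom scalings and in 12 under at least 1 of them. The pseudocount of 0.1 left all 19 counts within 1.5 times.

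Leaving out 1 library at a time, counts ranged over 4 to 5 at 1 hr and 7 to 9 at 4 hr in the first experiment, 2 to 3 and 5 to 5 in Arid1a f/f cells, 8 to 10 in Pbrm1 f/f cells, and 1 to 3 at 20 min and 2 to 3 at 60 min in the fourth. They ranged over 5 to 8 and 2 to 5 for Arid1a loss at 1 and 4 hr and 0 to 4 for Pbrm1 loss. For ACBI1, BRM014 and BRDK98 they ranged over 0 to 0, 0 to 0 and 0 to 2 at 20 min, 4 to 5, 8 to 11 and 3 to 4 at 60 min, and 3 to 4, 4 to 6 and 6 to 7 at 4 hr. Of 93 calls of named genes, 54 were kept without each library in turn. The single 4 hr control library could not be left out.

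Not every pair of same-numbered libraries deviated together: correlations of their deviations were over 0.1 in 1 of 10 pairs of groups in each of the first 2 experiments (-0.09 to 0.17), 2 of 3 in the third (0.01 to 0.23) and 11 of 36 in the fourth (-0.24 to 0.24), so the numbers were not taken to pair the libraries. With the replicate number as a block all 19 counts stayed within 1.5 times, and of 249 values of named genes 6 lost their call and 1 gained one. Reads limit what can be said of the 64 scarce replication-dependent genes.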
